A study of Rattus norvegicus with 13 samples.

Results

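Mdm2 and Mdm4, which restrain the tumour suppressor p53, and 5 genes that p53 can switch on (Cdkn1a, Ccng1, Gadd45a, Phlda3 and Sesn2) were examined in the thyroid of young rats whose mothers had received potassium iodide (KI) or saline during pregnancy. The genes were chosen by name, and every array probe carrying one of the 7 names was kept, which gave 7 of the 36174 gene names and 10 of the 45598 gene probes on the array.

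The thyroids came from 13 male Wistar rats, each measured on 1 one-colour Agilent microarray with Cy3-labelled RNA. The 6 rats of the KI-treated group were born to mothers given 1 mg/kg/day of KI by gavage for 8 days from gestational day 9, and the 7 rats of the control group to mothers given saline in the same way. Both groups were sampled 51 days after birth, 30 days after weaning, to ask whether iodide received before birth leaves a trace in gene expression. Litters are not named in the labels, so each array was treated as 1 independent animal, and the p-values describe only the spread between these animals, some of which may share a mother.

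p53 is a transcription factor that is kept scarce in unstressed cells by Mdm2, a ubiquitin ligase that marks it for destruction, and by Mdm4, a relative of Mdm2 that binds p53 and holds back its activity. DNA damage and other stresses release p53, which then raises the transcription of genes that stop the cell cycle, repair DNA, limit growth signalling or start cell death. Mdm2 is also a target of p53, which closes a feedback loop, and several of the other targets respond to hormones, nutrients and stress without p53 as well.

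Of the 58717 gene spots of an array, 36398 to 41050 stood well above background in KI-treated and 34840 to 40683 in control animals, and none was saturated. The number of arrays limits the precision. Every level below is the log2 signal of a probe minus the 75th percentile of log2 signal over all gene probes of the same array, so that 0 marks the 75th percentile, and levels of different probes are not compared with each other. That percentile was lowest on the arrays of control 4 (8.18) and control 6 (7.92), against 8.48 to 9.10 on the other 11, so values of these 2 dim arrays are named below. Controls 4 and 6 were the only controls of their scan session, which also held KI-treated animals 2 and 3. Among controls, dimness and scan session therefore cannot be told apart, and leaving out controls 4 and 6 leaves that session with KI-treated animals only. The follicular cell markers Tg, Pax8 and Nkx2-1 were above background on all 13 arrays. All 8 skeletal muscle markers were lower in the KI-treated group (median log2 fold change -1.30, 2 past an unadjusted 0.05, 0 after adjustment in limma), and their summed level ran from 1.82 to 6.04 in KI-treated and from 4.27 to 7.25 in control animals. The markers of the 8 other non-follicular cell types had median differences from -0.29 to 0.26, with 1 marker each of parathyroid (Gcm2), C cells (Chga), adipocytes (Adipoq, lower) and blood (Hbb) past an unadjusted 0.05, and 9 of the 10 follicular markers tested were lower. The part of these markers in the values below was not tested, and in whole tissue fewer cells of a type and less RNA per cell cannot be told apart.

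The array reads each gene through probes of 60 bases. The following 4 are the probes without a stop codon in at least 1 reading frame whose level was above background on all arrays, and they include those of Phlda3 and Sesn2, which by the brightest probe of each gene had the widest ranges over the animals.
Phlda3 probe: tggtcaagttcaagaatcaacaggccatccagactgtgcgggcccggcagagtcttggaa
Sesn2 probe: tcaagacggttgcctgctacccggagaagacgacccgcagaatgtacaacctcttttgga
Mdm4 probe 2: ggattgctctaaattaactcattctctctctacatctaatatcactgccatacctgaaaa
Mdm4 probe 3: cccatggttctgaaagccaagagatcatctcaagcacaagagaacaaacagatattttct
In the rat build rn4 used by the array, the Phlda3 probe lies at chr13:48790295-48790354 on the plus strand, Mdm4 probe 2 at chr13:45896563-45896622 and Mdm4 probe 3 at chr13:45896366-45896425, both on the minus strand. The Sesn2 probe carries no position in the array files. The brightest Mdm4 probe lies at chr13:45889856-45889915, and begins at base 7874 of a predicted transcript, whereas probes 2 and 3 begin at bases 1107 and 1304 of a curated one. The probes of the other genes lie at chr7:56996880-56996939 (Mdm2), chr20:7386596-7386655 (Cdkn1a), chr10:25776868-25776927 (Ccng1) and chr4:96650454-96650513 (Gadd45a). Exon annotation of that build was not used here.

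p53 binds DNA as a tetramer at a pair of 10-base half-sites. Each of the 7 genes has a promoter sequence of 250 bases before to 50 bases after its start in RefSeq (build GRCr8), and an exact match to the consensus p53 half-site, which reads the same on both strands, was present in 3 of the 7, against 7.98% of all 33469 promoters of that length. The 60 bases around each match are shown because these 3 genes are also those of the cell-cycle arrest group described below, with the half-site in capitals.
Cdkn1a: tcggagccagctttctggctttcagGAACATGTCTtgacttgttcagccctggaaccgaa
Ccng1: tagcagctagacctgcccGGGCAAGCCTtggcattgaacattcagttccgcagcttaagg
Gadd45a: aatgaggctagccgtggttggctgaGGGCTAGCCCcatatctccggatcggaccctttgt
The Cdkn1a stretch is chr20:7150706-7150765 on the plus strand, with the half-site beginning 201 bases before the start. The Ccng1 stretch is chr10:25685067-25685126 and the Gadd45a stretch chr4:97486813-97486872, both on the minus strand, with half-sites beginning 232 and 48 bases before the start. A pair of exact half-sites with a spacer of up to 13 bases was found in 0 of the 7 and in 0.0598% of all promoters. A match is a description of letters, and its absence says only that these letters are not in this window.

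For none of the 7 genes did the difference between KI-treated and control thyroids pass an adjusted 0.05. Of the 10 probes, 9 were well above background on at least 6 arrays and entered the limma test across 25717 probes. Of these 9, 0 passed 0.05 without adjustment, where 12.7% of all probes tested did (5.71% higher and 7.01% lower in KI-treated animals), and 0 passed after Benjamini-Hochberg adjustment, where 0 of all probes did. The methods' t-test on the same values also gave 0 of the 9, unadjusted and adjusted. By the brightest probe, 3 genes had a higher and 4 a lower mean in KI-treated animals, with a median log2 fold change of -0.05 beside -0.08 over all probes tested. The groups overlapped for all 10 probes (0.587% of probes tested had groups that did not overlap). The smallest p of the exact two-sided permutation test over the 1716 splits of the animals was 0.0991, for Ccng1. The control animals were the more variable group in 6 of the 7 genes, as they were at 78.1% of all probes tested.

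**Figure D1:**
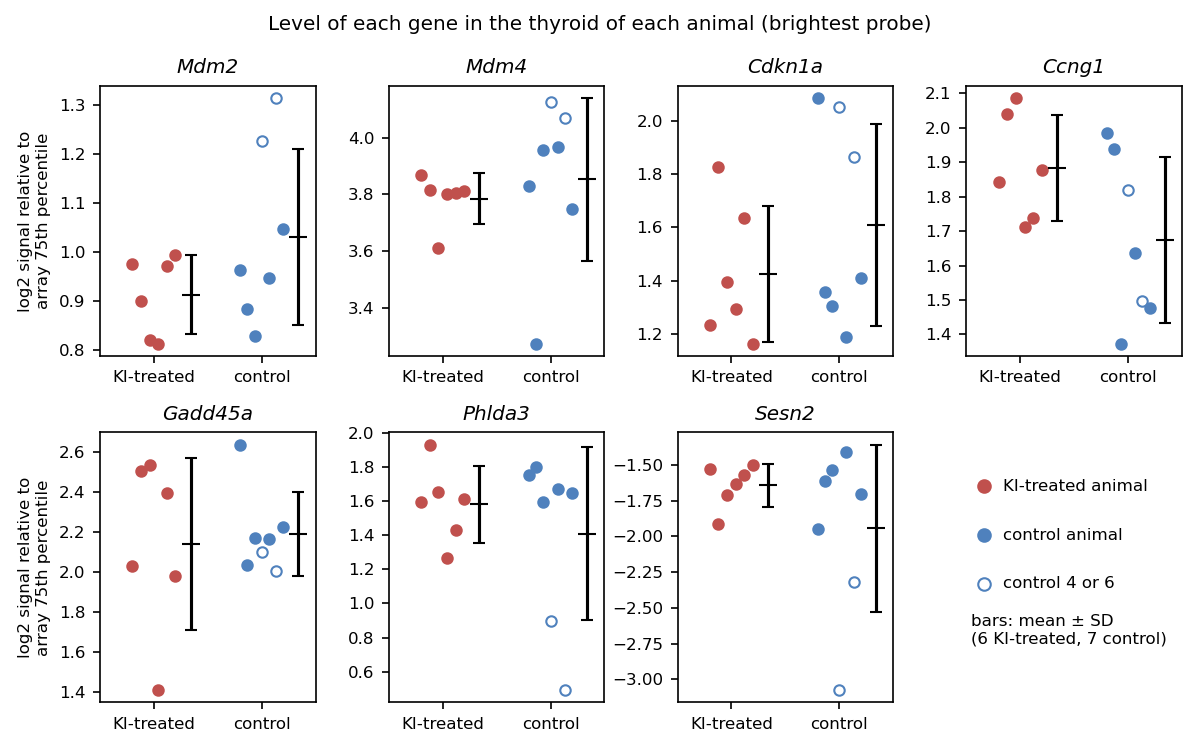
Level of each of the 7 genes in each animal, as log2 signal of the brightest probe relative to that array's 75th percentile, with the mean and SD of the 6 KI-treated and 7 control animals as bars; each panel has its own vertical scale. The groups overlap in every panel, and the open points (controls 4 and 6) are the highest for Mdm2 and Mdm4 and the lowest for Phlda3 and Sesn2.

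Among the regulators, Mdm2 had the narrowest range of the 7 genes. Its level ran from 0.81 to 0.99 (median 0.94) in the KI-treated group and from 0.83 to 1.31 (median 0.96) in the control group. Only the dim arrays of controls 4 (1.23) and 6 (1.31) and control 7 (1.05) lay above all KI-treated animals. The means were 0.91 ± 0.08 (SD, n = 6) and 1.03 ± 0.18 (SD, n = 7), which made the log2 fold change -0.12 with a standard error (SE) of 0.10 (limma, adjusted p = 0.568), and -0.02 without controls 4 and 6. Within the 5 slides that held both groups the difference ran from -0.49 to 0.10, higher in KI-treated animals on 2 of them.

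Mdm4 was read by 3 probes, which did not agree on how animals differed. At the brightest probe the KI-treated animals lay between 3.61 and 3.87 (median 3.81) and the control animals between 3.27 and 4.13 (median 3.96). All 6 KI-treated animals were below the control median, yet control 2 lay below every one of them and the groups overlapped. The means were 3.79 ± 0.09 (SD, n = 6) and 3.85 ± 0.29 (SD, n = 7), which made the log2 fold change -0.07 with SE 0.13 (limma, adjusted p = 0.789), a value whose sign turned under other scalings. Its within-slide differences ran from -0.46 to 0.57. Probes 2 and 3 had low signals, though above background on all 13 arrays. Their means were -2.25 and -2.91 in KI-treated and -2.40 and -2.91 in control animals. They had log2 fold changes of 0.15 (standard error 0.17) and -0.002 (standard error 0.25). With group means subtracted, the brightest probe correlated over the 13 animals at r = -0.06 with probe 2 and 0.42 with probe 3, and probes 2 and 3 with each other at r = 0.001.

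The cell-cycle arrest group holds Cdkn1a, which encodes the cyclin-dependent kinase inhibitor p21, Ccng1, which encodes the cyclin G1 that feeds back on Mdm2, and Gadd45a, a stress sensor that acts on the cell cycle and DNA repair. Cdkn1a was printed in 10 spots on each array. Its level ran from 1.17 to 1.83 (median 1.34) in KI-treated animals and from 1.19 to 2.08 (median 1.41) in controls. Controls 1 (2.08), 4 (2.05) and 6 (1.86) lay above all KI-treated animals, and the other 4 controls (1.19 to 1.41) lay within the KI-treated range. The SD between spots of one array was 0.03 to 0.12 (median 0.05), which covers spot noise within an array only, since these spots share RNA, labelling and hybridization. The means were 1.43 ± 0.25 (SD, n = 6) and 1.61 ± 0.38 (SD, n = 7), which made the log2 fold change -0.18 with SE 0.18 (limma, adjusted p = 0.593), and -0.05 without controls 4 and 6. Within slides it ran from -0.47 to 0.05, higher in KI-treated animals on 1 of 5. A second Cdkn1a probe was above background on 5 arrays only and did not enter the limma test. It correlated with the first at r = 0.71 with group means subtracted. Its difference had the other sign, at 0.19 (exact permutation p = 0.557), so the 2 probes gave no single direction.

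Ccng1 had the smallest p of the 7 genes. Its level ran from 1.71 to 2.09 (median 1.86) in KI-treated animals and from 1.37 to 1.99 (median 1.64) in controls. All 6 KI-treated animals were above the control median, and controls 1, 2 and 4 lay among them. The means were 1.88 ± 0.15 (SD, n = 6) and 1.68 ± 0.24 (SD, n = 7), which made the log2 fold change 0.21 with SE 0.13 (limma, adjusted p = 0.454, exact permutation p = 0.0991). Within slides it ran from -0.25 to 0.59 and was higher in KI-treated animals on 3 of 5, and within the 3 scan sessions on 2. With the deposited log2 values or array weights Ccng1 passed an unadjusted 0.05, and under no setting an adjusted one.

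Gadd45a varied more among KI-treated than among control animals, the only gene of the 7 to do so. Its level ran from 1.41 to 2.53 (median 2.21) in KI-treated animals and from 2.01 to 2.63 (median 2.17) in controls. KI-treated animals 2, 3 and 5 lay above 6 of the 7 controls, and KI-treated animal 4 lay below every other animal. The means were 2.14 ± 0.43 (SD, n = 6) and 2.19 ± 0.21 (SD, n = 7), which made the log2 fold change -0.05 with SE 0.18 (limma, adjusted p = 0.886), and 0.10 without KI-treated animal 4. Within slides it ran from -0.76 to 0.53, higher in KI-treated animals on 2 of 5.

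The remaining pair acts on growth signalling. Phlda3 encodes a small PH-domain protein that competes with Akt for membrane lipids, and Sesn2 encodes sestrin 2, a stress-induced protein that restrains mTORC1. Phlda3 ran from 1.27 to 1.93 (median 1.60) in KI-treated animals and from 0.49 to 1.80 (median 1.65) in controls. Controls 4 (0.90) and 6 (0.49) lay below all other animals, and the other 5 controls lay between 1.60 and 1.80. The means were 1.58 ± 0.22 (SD, n = 6) and 1.41 ± 0.51 (SD, n = 7), which made the log2 fold change 0.17 with SE 0.21 (limma, adjusted p = 0.670). It turned to -0.11 without controls 4 and 6. Within slides it ran from -0.37 to 1.16, and it was higher in KI-treated animals on 2 of 5, the slides of controls 4 and 6.

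Sesn2 ran from -1.92 to -1.50 (median -1.60) in KI-treated animals and from -3.07 to -1.41 (median -1.70) in controls. Controls 4 (-3.07), 6 (-2.32) and 1 (-1.95) lay below all KI-treated animals, and the other 4 controls lay among or above them. The means were -1.64 ± 0.15 (SD, n = 6) and -1.94 ± 0.58 (SD, n = 7), which made the log2 fold change 0.30 with SE 0.23 (limma, adjusted p = 0.522), and -0.003 without controls 4 and 6. Within slides it ran from -0.16 to 1.16 and was higher in KI-treated animals on 4 of 5, and with the scan session as a block it passed an unadjusted 0.05 but not an adjusted one.

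The 95% intervals of limma give the precision of each fold change under the scaling used here, with the animals taken as independent. For Mdm2 the interval of the fold change was 0.789 to 1.08, for Cdkn1a (brightest probe) 0.677 to 1.14 and for Gadd45a 0.742 to 1.26. For Mdm4 it was 0.784 to 1.16 at the brightest probe, 0.866 to 1.42 at probe 2 and 0.688 to 1.45 at probe 3. For Ccng1 it was 0.956 to 1.39, for Phlda3 0.824 to 1.54 and for Sesn2 0.876 to 1.73. All of them included 1, and the interval of Sesn2 reached highest and that of Cdkn1a lowest.

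**Figure D2:**
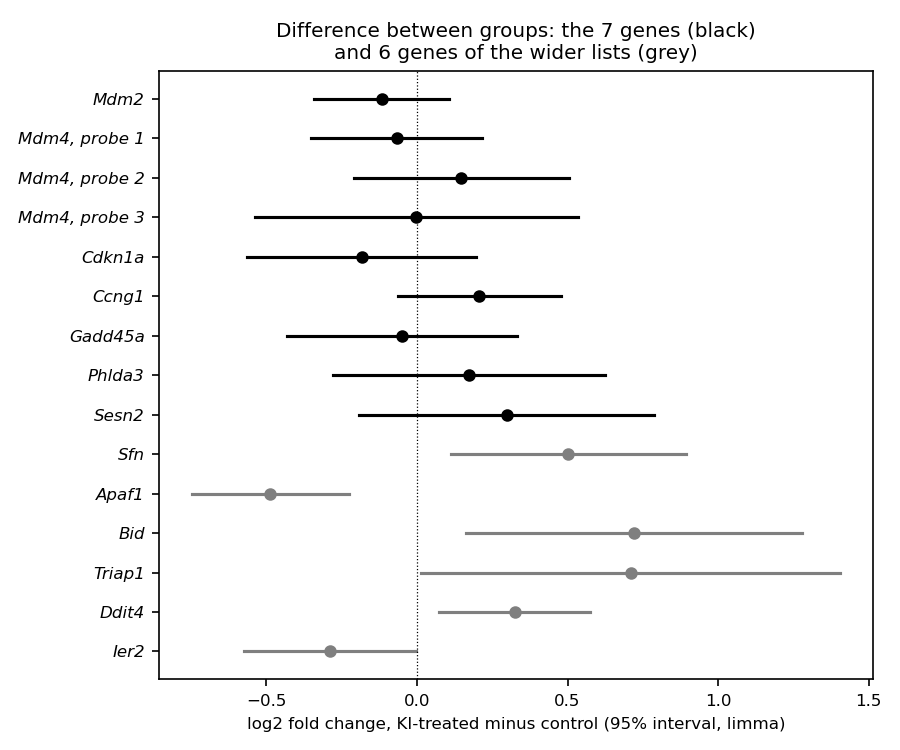
Log2 fold change of the KI-treated against the control group with its 95% interval from limma, for the 9 tested probes of the 7 genes (black) and for 6 genes of the wider lists (grey). Every black interval crosses 0.

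The wider pathway was described with 55 named genes in 4 lists, upstream regulators, targets in arrest and repair, targets in apoptosis, and metabolic and secreted targets. Of the 53 with a probe, 47 were tested, of which 18 were higher in KI-treated animals and 29 lower, with a median log2 fold change of -0.09. After adjustment 0 passed, and without adjustment 4 did, or 8.51% beside 12.7% of all probes tested. The unadjusted calls over all probes were 1469 higher and 1802 lower, a split that was 1823 and 1432 after quantile normalization and 1166 and 3427 after normexp background correction. Among the 16 upstream regulators tested, which include the kinases Atm and Chek1 and the deubiquitinase Usp7, 0 passed an unadjusted 0.05.

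The 4 genes past an unadjusted 0.05 did not share a direction. Sfn, which encodes 14-3-3 sigma, an arrest protein, ran from -1.87 to -1.24 in KI-treated and from -2.77 to -1.69 in control animals, a log2 fold change of 0.50 with SE 0.18 (limma, adjusted p = 0.358). Apaf1, the core of the apoptosome, ran from -0.73 to -0.35 against -0.25 to 0.48, a log2 fold change of -0.49 with SE 0.12 (limma, adjusted p = 0.342), and its groups did not overlap. Its second probe had a log2 fold change of 0.58, so the array gave no single direction for this gene. Bid, which links death receptors to mitochondria, was at 0.72 with SE 0.26 (limma, adjusted p = 0.358) with a signal above background on 6 arrays only, and was 0.02 with normexp background correction. Triap1, which encodes an inhibitor of apoptosis in mitochondria, was at 0.71 with SE 0.33 (limma, adjusted p = 0.389), with controls 4 (-2.17) and 6 (-1.41) far below the others, and at 0.22 without them.

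The related lists held 2 further genes past an unadjusted 0.05. Of the 9 family relatives of the members (such as Cdkn1b, Gadd45b and Sesn3), 2 were higher and 7 lower and 0 passed an unadjusted 0.05. Of the 9 tested genes of the ATF4 stress response, 1 did, Ddit4, an mTORC1 inhibitor induced by stress and glucocorticoids, at 0.32 with SE 0.12 (limma, adjusted p = 0.358). Of the 7 tested immediate-early genes 1 did, Ier2, at -0.29 with SE 0.13 (limma, adjusted p = 0.390), and of the 9 glucocorticoid and clock response genes and the 8 proliferation genes 0 did.

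Between animals the 7 genes did not move as 1 block. The correlation of each of the 21 pairs was taken over the 13 animals with group means subtracted, and tested by 100000 permutations within groups with Benjamini-Hochberg adjustment over the pairs. All levels of an array share its 75th percentile as the point of reference. Cdkn1a and Sesn2 ran opposite to each other (Pearson r = -0.77, permutation p = 0.00245, adjusted p = 0.0514; Spearman rho = -0.90, permutation p = 0.00059, adjusted p = 0.0124). The value was r = -0.87 without the 2 animals farthest from the median of Cdkn1a and at -0.87 without controls 4 and 6 (adjusted p = 0.0291), and was -0.77 within KI-treated and -0.81 within control animals. With slide and group removed it was -0.56. Under other scalings it was weaker and did not pass, at -0.61 after quantile normalization (adjusted p = 0.316), -0.63 with the deposited values (adjusted p = 0.211) and -0.49 with the 75th percentile over spots (adjusted p = 0.463), while with normexp it was -0.82 (adjusted p = 0.0137). No other pair passed an adjusted 0.05 by either measure.

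The next strongest pairs rested on the dim arrays. Mdm2 and Phlda3 had r = -0.76 (rho = -0.58, permutation p = 0.0233 for r, adjusted p = 0.244), but 0.16 within KI-treated and -0.91 within control animals, and 0.12 without controls 4 and 6. Mdm2 and Sesn2 went from -0.67 to 0.05 and Phlda3 and Sesn2 from 0.62 to -0.49 when these 2 animals were left out. The arrest genes gave r = 0.41 for Cdkn1a and Ccng1, 0.44 for Cdkn1a and Gadd45a and 0.47 for Ccng1 and Gadd45a (adjusted p from 0.281 to 0.407), and 0.50, 0.67 and 0.48 without controls 4 and 6, but -0.15, -0.65 and 0.38 with slide and group removed. Ccng1 and Phlda3 went from 0.36 to 0.68 (adjusted p = 0.0214) without them.

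**Figure D3:**
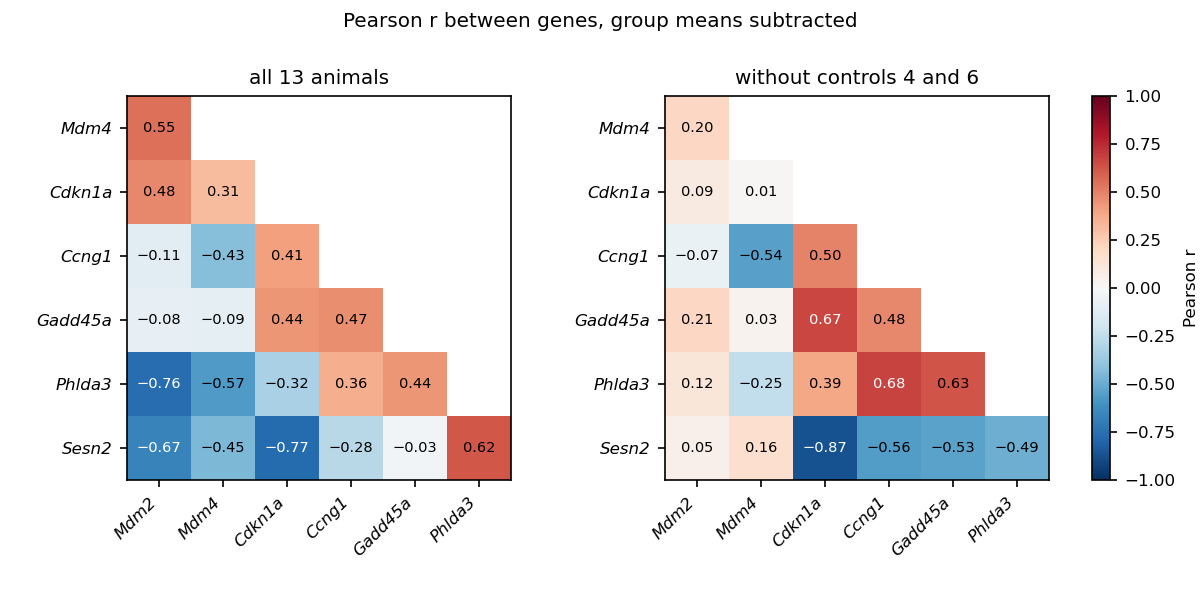
Pearson r between the levels of each pair of genes with group means subtracted, over all 13 animals (left) and without controls 4 and 6 (right), from blue (-1) to red (1). The negative block of Mdm2 with Phlda3 and Sesn2 is near 0 on the right (0.12 and 0.05), while Cdkn1a with Sesn2 is -0.77 on the left and -0.87 on the right.

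The brightness of the array went with several of the levels. Over 13 animals with group means subtracted, the 75th percentile of the array correlated with Mdm2 at r = -0.78 (rho = -0.65, permutation p = 0.0124, adjusted over the 7 genes p = 0.0868), with Phlda3 at 0.70 (rho = 0.43, permutation p = 0.0393, adjusted p = 0.103), with Sesn2 at 0.69 (rho = 0.63, permutation p = 0.0441, adjusted p = 0.103) and with Cdkn1a at -0.51 (rho = -0.45, permutation p = 0.146, adjusted p = 0.255). With group means subtracted, the 2 animals farthest from the median brightness were controls 5 and 6. Without them r was -0.66 for Mdm2, 0.38 for Phlda3, 0.67 for Sesn2 and -0.34 for Cdkn1a. The other dim array, which had the lowest Sesn2, was kept in these values. For Mdm4, Ccng1 and Gadd45a r lay between -0.20 and -0.03 and rho between -0.25 and 0.13, with permutation p from 0.640 to 0.907. Each level is the signal minus this same percentile, so a negative r is partly built in. The permutations do not allow for that, and their p-values cannot separate it from a relation with brightness. Whether brightness sets these levels was not tested.

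**Figure D4:**
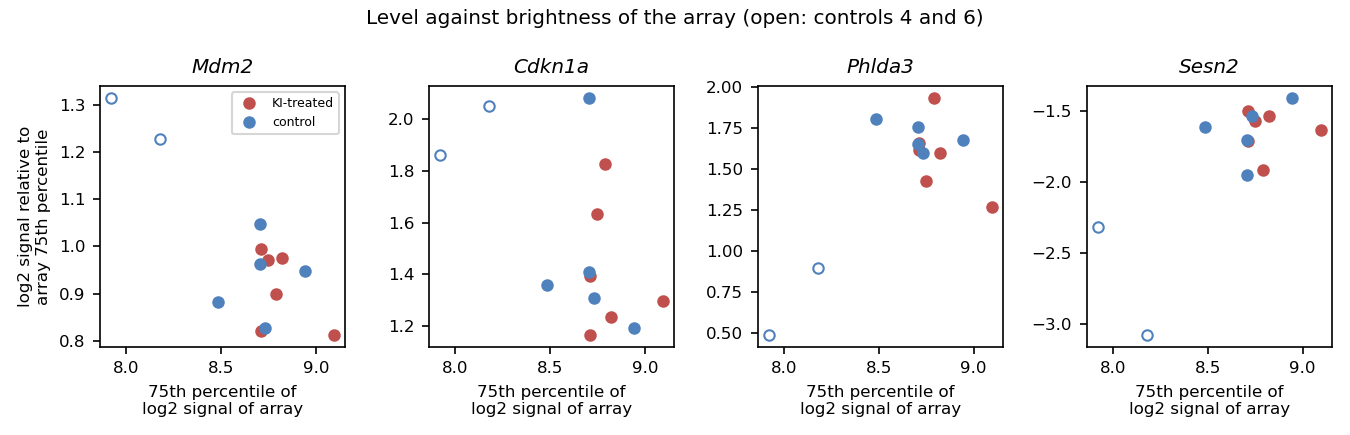
Level of Mdm2, Cdkn1a, Phlda3 and Sesn2 (log2 signal relative to that array's 75th percentile) against that percentile in each of the 13 animals. Controls 4 and 6, drawn open at 8.18 and 7.92, hold the highest values of Mdm2 and the lowest of Phlda3 and Sesn2.

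Against the mean level of other gene lists, Phlda3 gave the relations that passed the test. The 7 genes were set against the mean of each of 9 lists, taken over the genes measured on all 13 arrays, in 63 correlations with group means subtracted, a comparison added after the values were seen, and 2 passed an adjusted 0.05 in the permutation test. Phlda3 ran opposite to the apoptosis targets (r = -0.88, rho = -0.95, permutation p = 0.00022, adjusted p = 0.0139) and to the ATF4 list (r = -0.88, rho = -0.87, permutation p = 0.00063, adjusted p = 0.0198). Of the 10 apoptosis targets, 8 had a negative r with Phlda3, down to -0.81 for Apaf1 and -0.77 for Bax, the pore-forming protein of mitochondrial apoptosis. The 2 animals farthest from the median of Phlda3 were controls 4 and 6. Without them the values were -0.84 and -0.83 when the group means of all 13 animals were kept. With group means taken again they were -0.82 (permutation test, adjusted p = 0.0476) and -0.81 (adjusted p = 0.126), so these are not 2 separate checks. With slide and group removed they were -0.89 and -0.87. With the 75th percentile taken over spots they were -0.54 and -0.20 and with the deposited values -0.68 and -0.31, and none of these passed. After quantile normalization they were -0.77 and -0.75 (permutation test, adjusted p = 0.0066 for each). With normexp they were -0.90 (adjusted p = 0.0147) and -0.88 (adjusted p = 0.0228), so whether these 2 relations passed depended on the scaling. Without KI-treated animal 2 neither passed an adjusted 0.05, and without KI-treated animal 4 the ATF4 list did not.

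Gadd45a and the proliferation list ran in opposite directions at r = -0.77 (rho = -0.75, permutation p = 0.00252), which did not pass after adjustment (adjusted p = 0.0529, and 0.138 for rho). All 8 genes of the list had a negative r with Gadd45a, from -0.61 for Ccnb1 to -0.80 for Cdk1, the kinase that drives mitosis. KI-treated animal 4 had the lowest Gadd45a (1.41) and the highest list mean (0.39), and control 1 had the highest Gadd45a (2.63) and the lowest list mean of the controls (-1.16). The value was -0.64 without the 2 animals farthest from the median of Gadd45a, -0.82 within KI-treated and -0.73 within control animals, and -0.74 with slide and group removed. With each animal left out in turn r ran from -0.81 to -0.71, and it passed an adjusted 0.05 in 3 of 13 cases. With normexp r was -0.81 (permutation test, adjusted p = 0.0147). It did not pass after quantile normalization (-0.78), with the deposited values (-0.82) or with the 75th percentile over spots (-0.75).

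Cdkn1a and the list of glucocorticoid and clock response genes had r = 0.74 (rho = 0.63, permutation p = 0.00402), which did not pass either (adjusted p = 0.0633). All 9 genes of the list had a positive r with Cdkn1a, from 0.01 for Per2 to 0.89 for Klf9 and 0.83 for Tsc22d3, both direct targets of the glucocorticoid receptor. KI-treated animal 2 and control 1 were the highest in their groups for both Cdkn1a and the mean of this list (1.45 and 1.41). The value was 0.64 without the 2 animals farthest from the median of Cdkn1a, 0.93 without controls 4 and 6 (adjusted p = 0.0353), 0.97 within KI-treated and 0.64 within control animals, and 0.28 with slide and group removed. With normexp it was 0.89 (permutation test, adjusted p = 0.0113). It did not pass after quantile normalization (0.80), with the deposited values (0.85) or with the 75th percentile over spots (0.78). With its family relatives Cdkn1a had r = 0.59 (rho = 0.54, permutation p = 0.0357, adjusted p = 0.221) over the 8 genes measured on all arrays, 6 of them positive, from -0.25 for Sesn3 to 0.67 for Cdkn1c.

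**Figure D5:**
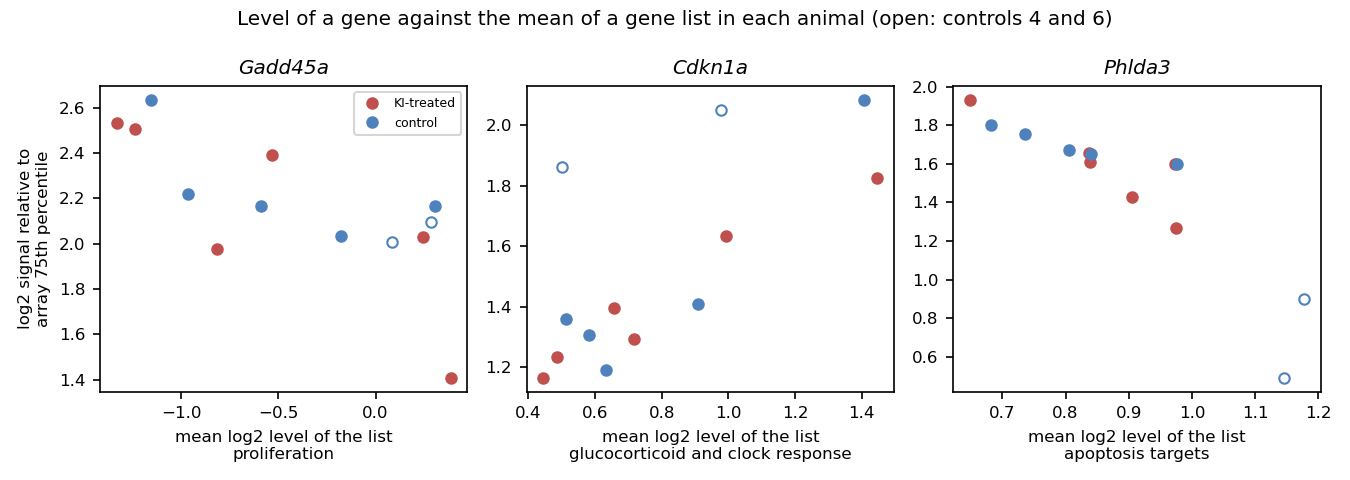
Level of Gadd45a, Cdkn1a and Phlda3 (log2 signal relative to that array's 75th percentile) against the mean log2 level of the proliferation, glucocorticoid and clock response, and apoptosis lists in each of the 13 animals. Points fall from left to right for Gadd45a and Phlda3, and in the middle panel controls 4 and 6 (open) lie above the rising line of the other animals.

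By the highest Pearson r with group means subtracted over the 13 animals, among 20668 gene names, the genes most like each member were as follows. For Cdkn1a they were Mxra8 and Cndp1 (both r = 0.97) and Igsf6 (0.94), and for Gadd45a they were Edn1 (0.94), Kirrel3 (0.91) and LOC102550733 (0.91). For Ccng1 they were Fgd1 (0.90), Gid4 (0.89) and LOC102548640 (0.88), and for Mdm4 Ccnt2 (0.95), LOC102550008 (0.94) and Stx16 (0.93), and all of these values were at least 0.88 without controls 4 and 6. For Mdm2 the most alike were ENSRNOT00000024704 (0.95), Rundc1 and Stard7 (both 0.94), for Phlda3 CF107847 (0.96), Dctn4 (0.94) and Dync2li1 (0.93), and for Sesn2 RGD1564855 and FQ219355 (both 0.99) and Wdr33 (0.98). Without controls 4 and 6 the values of the genes like Mdm2 and Phlda3 were 0.80 to 0.87, and of those like Sesn2 0.93 to 0.96. All values given here without controls 4 and 6 kept the group means of all 13 animals. Group means were not taken again, so these values are not comparable with the recentred ones given for the pairs. The highest of 20668 values is high by selection, so these are descriptions without a test.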

How the data were processed

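One-colour arrays of the thyroid of 6 KI-treated and 7 control rats were used, with groups and replicate numbers taken from the sample labels. The authors deposited scanner output holding each spot's intensity after background subtraction by Agilent's Feature Extraction 10.7.3.1, not normalized between arrays, and 1 log2 value per probe and array, whose normalization is not given in the sources used here and which served as an alternative. The number of value columns belonging to no listed sample was 0. The processed signal was put on the log2 scale, outlier-flagged and control spots were left out, spots of one probe were averaged, and the 75th percentile over the 45598 probes of each array was subtracted. Probes that stood well above background on 6 arrays or more (25717) were tested with limma (version 3.58.1, R 4.3.3, lmFit, eBayes, Benjamini-Hochberg, threshold 0.05). That test was checked on simulated arrays with independent probes and the same spread in both groups. The check does not cover dim arrays or a more variable control group. Single probes were tested over all splits of the animals and correlations with 100000 permutations within groups (Python 3.11.15, numpy 2.4.6). The lists held 157 genes in 20 lists.

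The members and lists were chosen with earlier results of these data known. The text names all members with every probe, up to 3 genes per pathway list with the smallest p under 0.05 unadjusted at the brightest probe, and for each member the 3 most alike genes (1 further gene that the rule names is not reported here); markers and single genes named beside correlations were chosen after their values were seen. Where a gene had more than 1 probe, the brightest stood for it. Alternatives tried were background correction by normexp (offset 50) under both scalings, quantile normalization alone, the deposited values and other filters on dim probes. Further ones were slide, scan session or replicate number as a block, array weights, trended and robust variance, a plain t-test and leaving out each animal. Chosen after seeing the data were the 75th percentile over spots and leaving out controls 4 and 6. There were 6 slides, 5 of them with both groups, and 3 scan sessions. Sequences came from the array files and RefSeq.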

Additional observations from a re-analysis of the deposited data

Results flagged for a closer look

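In 20 sets of values, 1 for each probe of the 7 genes in each group, 4 animals stood apart from the rest of their group by Dixon's test, where chance alone gives about 1 in 20 sets. KI-treated animal 3 was lowest for the brightest Mdm4 probe, at 3.61 against 3.80 for the next. At Mdm4 probe 3, KI-treated animal 2 was lowest at -3.42 against -2.91, and control 6 was highest at -1.67 against -2.68. Control 6, a dim array, only just passed there, with a Dixon statistic of 0.56818 against a critical value of 0.568. Control 1 was highest for Gadd45a, at 2.63 against 2.22 for the next control.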

How the results depend on the processing

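No gene of the 7 passed an adjusted 0.05 under any of the 27 alternatives. Over all probes 0 passed, except 50 with array weights and 0 to 1 with each animal left out (1 without control 1 or control 2). The log2 fold change of the brightest Mdm4 probe turned to 0.033 after quantile normalization, 0.030 with normexp and quantile, 0.030 with the deposited values, 0.030 without controls 4 and 6, and 0.012 with the 75th percentile over spots. That of Gadd45a turned to 0.025, 0.032 and 0.046 with the first 3 of these and 0.030 with the spot percentile, and ran from -0.13 to 0.097 with each animal left out (0.097 without KI-treated animal 4, 0.025 without control 1). Phlda3 turned to -0.049 with array weights and -0.11 without controls 4 and 6, and Sesn2 to -0.0026 without these. Mdm4 probe 2 turned to -0.038 with normexp scaled by the percentile, and probe 3 to 0.039 after quantile normalization, 0.032 with the deposited values, 0.077 with the spot percentile, 0.12 with array weights, 0.15 without controls 4 and 6, and from -0.093 to 0.20 with each animal left out. By the brightest probe, Mdm2, Cdkn1a and Ccng1 kept their sign throughout. The causes were not tested.

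The 4 pathway genes past an unadjusted 0.05 became 7 with slide as a block, 9 with scan session, 7 with trended and robust variance, 2 without controls 4 and 6 (where their median log2 fold change was 0.040) and 3 to 7 with each animal left out. Correlated pairs numbered 0 under quantile normalization, the deposited values and the spot percentile, 1 with normexp, 2 without controls 4 and 6, 1 without subtracting group means and 0 to 1 with each animal left out, and with slide removed only r was computed. The 2 correlations with lists became 4 with normexp, 0 with the deposited values, 0 with the spot percentile and 0 to 4 with each animal left out (0 without KI-treated animal 2, 1 without KI-treated animal 4, 4 without control 3 or control 6). Without controls 4 and 6 the count was 2, of which 1 (Phlda3 with the apoptosis targets) was among the first 2. Replicate numbers did not pair the samples (correlations of deviations from -0.10 to 0.08), and with them as a block the log2 fold changes were -0.11 for Mdm2, -0.08 for Mdm4, -0.22 for Cdkn1a, 0.17 for Ccng1, -0.04 for Gadd45a, 0.21 for Phlda3 and 0.34 for Sesn2, with 0 called and 2356 in place of 3271 probes past an unadjusted 0.05. Signal near background limits Bid (above it on 6 arrays) and the second Cdkn1a probe (5 arrays).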
